A study of Mus musculus with 6 samples.

Results

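Egr1, Egr2, Egr3, Nr4a1, Nr4a2, Nr4a3, Ier2, Ier3 and Ier5 are early-response genes, chosen by gene symbol from a table of 56691 mouse genes. Each symbol matched 1 row, so 9 of 56691 genes are described, 3 in each of the EGR, NR4A and IER families. RNA came from bone marrow-derived macrophages, which had been grown from marrow with the growth factor M-CSF, cultured beside the cancer line mEC25 and then sorted. In the contact group (3 libraries) the macrophages touched the cancer cells, and in the transwell group (3 libraries) a porous insert kept the cell types apart. Both groups thus had M-CSF and cancer cells. Library totals were 20911880 to 22563835 counts in contact and 18173192 to 18895818 counts in transwell libraries. The labels give no genotype, age, sex, culture time or sort marker. Nothing in them shows that the replicates are separate cultures or animals, and the p-values therefore cover only the spread among these libraries, possibly a technical one.

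Early-response genes are transcribed within minutes of a signal, without new protein synthesis, by factors already present in the cell. Growth factor receptors and adhesion signal to them through the ERK kinase and serum response factor (SRF), hormones and prostaglandins through cyclic AMP and CREB, and microbial or cytokine signals through NF-κB. EGR proteins are zinc finger transcription factors, NR4A proteins are orphan nuclear receptors that act without a known natural ligand, and the IER genes encode proteins named for their immediate-early induction, of which Ier2 and Ier5 are related. In macrophages several of them switch on during activation, and Nr4a1 is known as a brake on inflammatory gene expression.

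RefSeq promoter windows, which run from 250 bases before to 50 bases after a transcript start on GRCm38.p6, were matched for 6 of the 9 genes (Egr2, Nr4a1, Nr4a2, Nr4a3, Ier3 and Ier5). They are shown to mark where they hold response elements of the signals named above. Whether such elements have a part in the changes below was not tested. Each is printed 5′ to 3′ on the gene's own strand, from the start of the window to the transcript start or to the first base of the gene's GENCODE M21 exons, whichever came first (for Nr4a3 this leaves out 1 of its 4 TGACG cores). Capitals mark the CREB core TGACG or its reverse complement CGTCA, the CArG box bound by SRF, and the κB site bound by NF-κB.
Nr4a1, chr15:101266596-101266845, plus strand: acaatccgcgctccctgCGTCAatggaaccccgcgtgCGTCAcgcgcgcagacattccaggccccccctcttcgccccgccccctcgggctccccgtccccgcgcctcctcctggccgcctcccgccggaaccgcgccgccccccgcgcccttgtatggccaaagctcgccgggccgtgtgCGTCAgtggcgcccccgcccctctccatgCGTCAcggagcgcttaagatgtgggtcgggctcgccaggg
Nr4a2, chr2:57124004-57124253, minus strand: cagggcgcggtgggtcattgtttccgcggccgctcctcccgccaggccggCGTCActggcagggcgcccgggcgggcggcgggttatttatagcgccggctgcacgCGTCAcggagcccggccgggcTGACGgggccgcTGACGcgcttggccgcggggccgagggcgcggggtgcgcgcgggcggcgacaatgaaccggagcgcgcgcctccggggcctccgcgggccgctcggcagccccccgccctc
Nr4a3, chr4:48045055-48045152, plus strand: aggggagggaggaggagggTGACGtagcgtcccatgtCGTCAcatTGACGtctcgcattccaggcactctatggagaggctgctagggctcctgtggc
Egr2, chr10:67537619-67537868, plus strand: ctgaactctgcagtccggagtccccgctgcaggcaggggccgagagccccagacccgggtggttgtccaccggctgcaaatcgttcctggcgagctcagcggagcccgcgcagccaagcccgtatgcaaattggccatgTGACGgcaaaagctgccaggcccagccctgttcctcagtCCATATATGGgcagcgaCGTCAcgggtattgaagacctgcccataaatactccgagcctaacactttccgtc
Ier3, chr17:35821463-35821683, plus strand: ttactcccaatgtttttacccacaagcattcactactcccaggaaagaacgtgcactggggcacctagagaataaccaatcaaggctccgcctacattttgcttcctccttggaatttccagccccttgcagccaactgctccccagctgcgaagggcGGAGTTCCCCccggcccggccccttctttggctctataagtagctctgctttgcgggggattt
Ier5, chr1:155099637-155099886, minus strand: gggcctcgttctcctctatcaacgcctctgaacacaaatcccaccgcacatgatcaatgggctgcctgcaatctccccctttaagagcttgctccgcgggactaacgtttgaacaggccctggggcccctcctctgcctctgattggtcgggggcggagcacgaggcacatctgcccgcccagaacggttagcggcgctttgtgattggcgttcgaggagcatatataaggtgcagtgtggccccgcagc

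On both strands, TGACG was present 4 times in the window of each NR4A gene, whereas 20.8% of all 32851 promoter windows held it at least once and 0.231% held it at least 4 times. The Egr2 window shown, from 1 of 5 RefSeq starts, held TGACG at 2 places, while the most upstream Egr2 window held 0 copies. At least 2 copies were present in 5.01% of all windows. In the Egr2 window shown a CArG box lay 72 to 63 bases before the transcript start. The 5 Egr2 windows, 3 of which overlap and share this box, held 2 distinct CArG boxes, and 1.63% of all windows held one. In Ier3 a κB site lay 92 to 83 bases before the start (8.46% of all windows held one), Nr4a1 had one across its start and Egr2 had them at its most upstream start, while the Ier5 window held none of these 3 motifs. The full CRE (TGACGTCA, 1.79% of all windows), the NR4A response element (AAAGGTCA, 1.51%) and the AP-1 site (TGAGTCA, 5.20%) were in none of the windows of the 6 genes. A binding site for EGR proteins (GCGGGGGCG, 2.91% of all windows) was read on the minus strand of Nr4a1, 60 to 52 bases before the start. A match describes the letters of a window and not the binding of a factor.

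Contact libraries held higher levels of 7 of the 9 genes, and none passed the test in the other direction. The largest changes were in Nr4a1, Egr3, Nr4a3 and Egr1, between 3.57-fold and 4.89-fold, followed by Nr4a2, Ier3 and Ier2. Egr2 missed the threshold narrowly, and Ier5 did not pass the test. Levels are given as FPKM, the authors' counts scaled for gene length and library total, and changes come from edgeR's quasi-likelihood test on the deposited counts of 14113 genes, scaled with TMM, at a Benjamini-Hochberg adjusted p under 0.05. Of all genes tested, 21.4% were higher by the same rule and 16.1% lower, 37.5% in either direction. Called rises reached 2-fold or more in 5 of the 9 genes, against 11.8% of all genes. The median log2 change was 1.19 over the 9 genes and 0.03 over all genes. By the unadjusted p 8 of the 9 were higher and 0 lower, and DESeq2, limma on log2(FPKM + 1) and limma-voom with quantile normalization also called 0 of them lower. All 9 passed the filter on low counts, set at 0.502 CPM (counts scaled to a common library total), in each library of both groups.

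**Figure D1:**
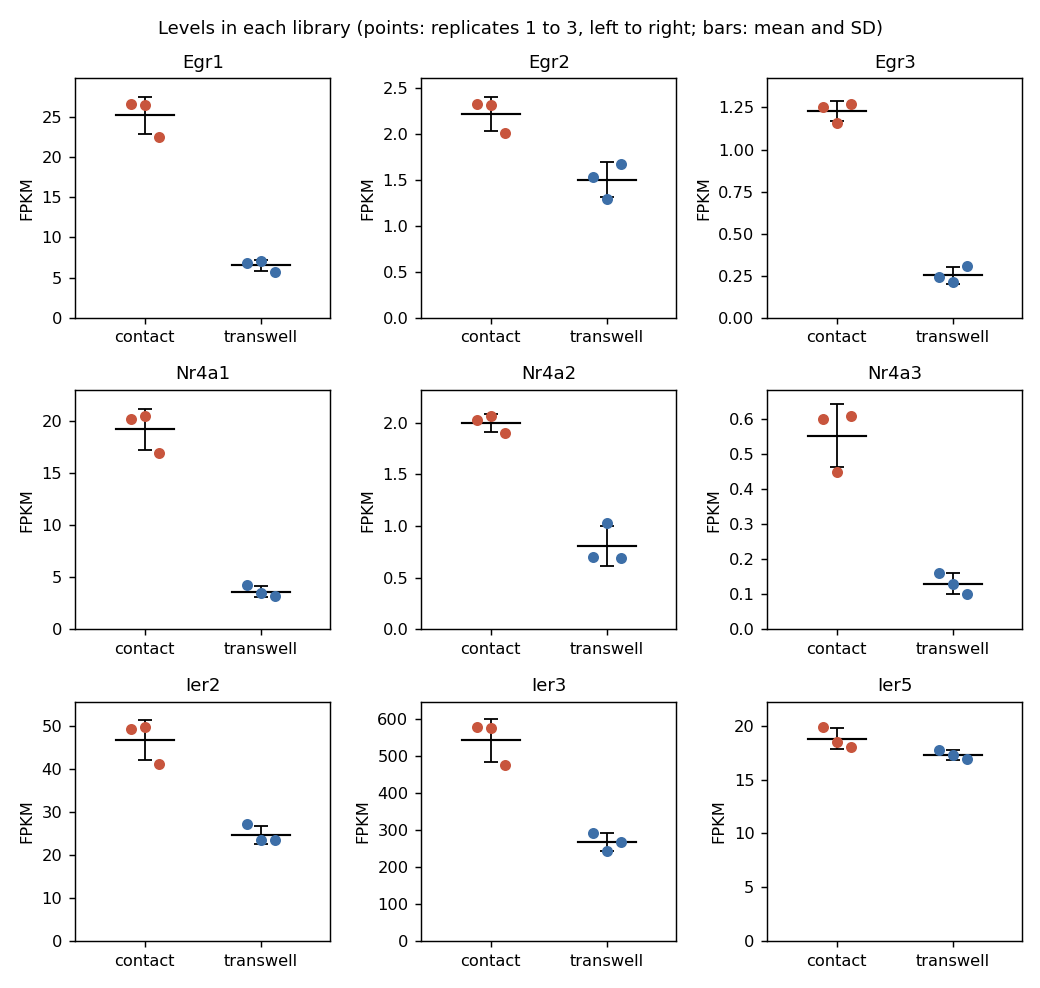
FPKM of each early-response gene (vertical axes, linear from 0) in the contact libraries (red) and transwell libraries (blue), with points for replicates 1 to 3, a bar at the mean and whiskers of 1 SD. In every panel the 3 contact points lie above the 3 transwell points, by a wide margin for Egr1, Egr3 and Nr4a1 and by a narrow one for Ier5.

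**Figure D2:**
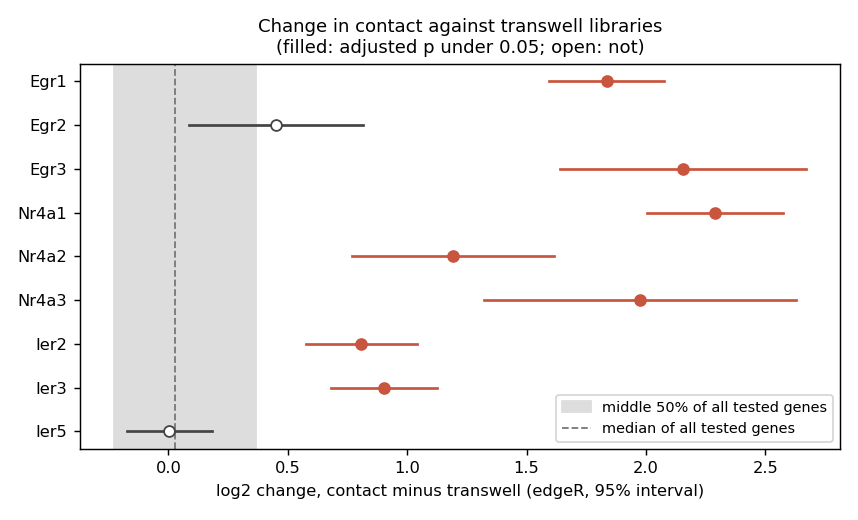
Log2 change of each gene, contact minus transwell, from edgeR (horizontal axis) with its 95% interval, filled where the adjusted p is under 0.05, over the middle 50% of all 14113 tested genes (grey band) and their median (dashed line). The intervals of 7 genes lie to the right of the band, while those of Egr2 and Ier5 reach into it.

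Among the NR4A receptors, Nr4a1 (Nur77, ENSMUSG00000023034, chromosome 15, 101254269 to 101274795 on GRCm38) rose most. It stood at 20.23, 20.55 and 16.98 FPKM in contact libraries and at 4.22, 3.47 and 3.21 FPKM in transwell libraries. Every contact library was far above every transwell library, and the log2 change was 2.29 ± 0.13 (SE, edgeR adjusted p = 1.6e-06). Nr4a3 (NOR-1, ENSMUSG00000028341, chromosome 4, 48045153 to 48086447) was the least abundant of the 9, with 81, 56 and 81 counts in contact libraries and 18, 14 and 11 in transwell libraries. That is 0.60, 0.45 and 0.61 FPKM in contact libraries against 0.16, 0.13 and 0.10 FPKM in transwell libraries, and the groups did not overlap. Its log2 change of 1.98 ± 0.29 (edgeR adjusted p = 5.4e-04) carried a wide 95% interval, 1.32 to 2.63.

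Nr4a2 (Nurr1, ENSMUSG00000026826, chromosome 2, 57106830 to 57124003), best known for its role in dopamine neurons, had 2.03, 2.07 and 1.90 FPKM in contact libraries and 0.70, 1.03 and 0.69 FPKM in transwell libraries. Transwell replicate 2 stood above the other 2 transwell libraries, yet below every contact library. The log2 change was 1.19 ± 0.19 (edgeR adjusted p = 8.5e-04), with an interval of 0.77 to 1.62 that lies wholly below that of Nr4a1, 2.0 to 2.57. Nr4a1 made up 88.2 ± 1.0% of the summed NR4A FPKM in contact libraries and 79.4 ± 4.13% in transwell libraries (SD, n = 3 each), while Nr4a2 made up 9.20 ± 0.477% in contact and 17.8 ± 4.26% in transwell libraries. The family's summed level was 21.8 ± 2.01 FPKM in contact and 4.57 ± 0.543 FPKM in transwell libraries.

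In the EGR family, Egr1 (ENSMUSG00000038418, chromosome 18, 34859823 to 34864984), a widely used readout of ERK activity, stood at 26.56, 26.45 and 22.45 FPKM in contact libraries. In transwell libraries it stood at 6.76, 7.07 and 5.67 FPKM. The groups lay far apart next to their spread, with a log2 change of 1.84 ± 0.11 (3.57-fold, 95% interval 3.02 to 4.22, edgeR adjusted p = 2.1e-06). Egr3 (ENSMUSG00000033730, chromosome 14, 70077203 to 70082614), a close relative that binds the same DNA sites, had 1.25, 1.16 and 1.27 FPKM in contact libraries and 0.24, 0.21 and 0.31 FPKM in transwell libraries. Its log2 change was 2.16 ± 0.23 (edgeR adjusted p = 6.7e-05), on 17 to 25 counts per transwell library.

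Egr2 (Krox20, ENSMUSG00000037868, chromosome 10, 67535475 to 67542188) encodes the factor needed for myelination by Schwann cells and is also known in alternatively activated macrophages. It had 2.33, 2.32 and 2.01 FPKM in contact libraries and 1.53, 1.30 and 1.68 FPKM in transwell libraries. The groups did not overlap, but transwell replicate 3 came close to contact replicate 3. The log2 change was 0.45 ± 0.16, with an unadjusted 95% interval of 0.09 to 0.81 and an edgeR adjusted p of 0.0536. The share of Egr2 in the summed EGR FPKM was 7.77 ± 0.0422% in contact libraries and 18.3 ± 3.41% in transwell libraries (SD, n = 3 each).

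**Figure D3:**
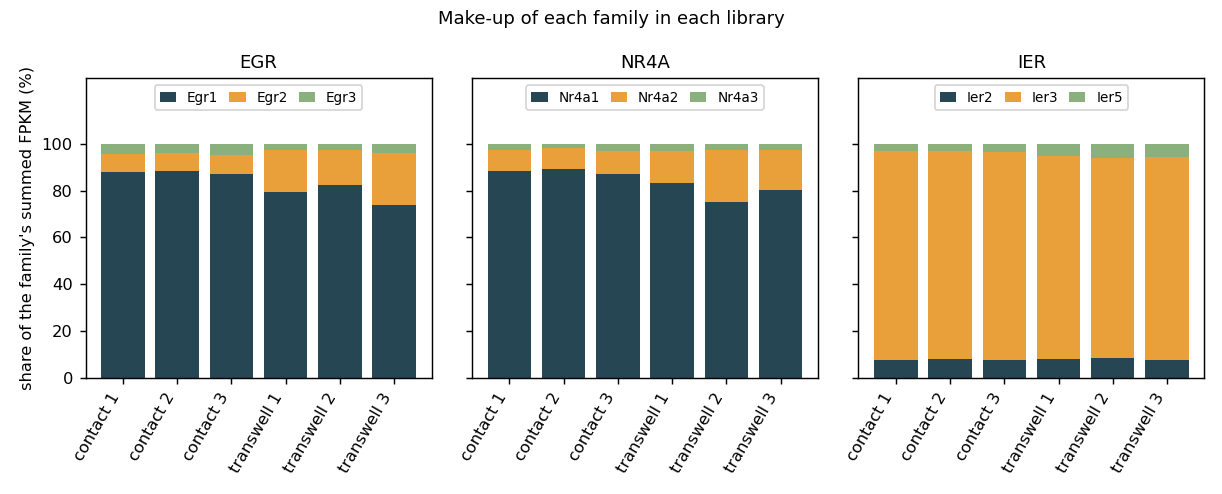
Share of each gene in the summed FPKM of its family (vertical axis, percent) in the 3 contact and 3 transwell libraries (horizontal axis), as stacked bars, 1 panel per family. Egr1, Nr4a1 and Ier3 fill most of every bar, and Egr2, Nr4a2 and Ier5 take a smaller share in each contact library than in any transwell library.

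Ier3 (IEX-1, ENSMUSG00000003541, chromosome 17, 35821684 to 35822923), which modulates cell survival and is a classic NF-κB target, was by far the most abundant of the 9. It stood at 578.96, 575.99 and 476.73 FPKM in contact libraries and 292.96, 244.63 and 267.54 FPKM in transwell libraries, and 89 of the 14113 tested genes had a higher mean FPKM over the 6 libraries. The log2 change was 0.90 ± 0.10 (1.87-fold, edgeR adjusted p = 8.4e-05). Ier2 (ENSMUSG00000053560, chromosome 8, 84661331 to 84662852), whose product is a nuclear protein, had 49.38, 49.83 and 41.35 FPKM in contact libraries against 27.16, 23.43 and 23.43 FPKM in transwell libraries. All contact libraries were above all transwell libraries, and its log2 change of 0.81 ± 0.10 (edgeR adjusted p = 2.3e-04) had an interval, 0.57 to 1.04, that overlapped that of Ier3, 0.68 to 1.13.

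Ier5 (ENSMUSG00000056708, chromosome 1, 155096361 to 155099636), a partner of protein phosphatase 2A that acts on heat shock factor 1, did not differ by the test. Its FPKM were 19.87, 18.52 and 18 in contact libraries and 17.77, 17.25 and 16.88 in transwell libraries, so they did not overlap, as was true of all 9 genes and, with contact higher, of 35.8% of all genes tested. After TMM scaling its values were 63.0, 57.8 and 57.0 CPM in contact libraries and 61.1, 58.3 and 57.8 in transwell libraries, which overlap (the other 8 genes stayed apart, with contact higher, as did 27.7% of all genes). TMM factors were 1.04 to 1.05 in contact and 0.953 to 0.970 in transwell libraries. The log2 change was 0.0042 ± 0.079 (edgeR adjusted p = 0.974), and its 95% interval allows a level between 0.887-fold and 1.13-fold that of transwell libraries.

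On the FPKM scale the order of the 9 levels differed between the groups. In transwell libraries it ran Ier3, Ier2, Ier5, Egr1, Nr4a1, Egr2, Nr4a2, Egr3 and Nr4a3 from high to low, and no pair of neighbours overlapped over the 3 libraries. In contact libraries Egr1 (22.45 to 26.56 FPKM) stood above Ier5 (18 to 19.87 FPKM), while Nr4a1 (16.98 to 20.55 FPKM) overlapped Ier5 and could not be ordered against it. The ranges of Egr2 (2.01 to 2.33 FPKM) and Nr4a2 (1.90 to 2.07 FPKM) overlapped there as well, though Egr2 was the higher within each contact library.

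Gene structure differed between the families. The 6 EGR and IER genes span 1240 to 6714 bases with 1 or 2 exons, against medians of 23834 bases and 9 exons over 12271 tested protein-coding genes. Ier2 and Ier5 have a single exon in GENCODE M21, as do 2.23% of those genes, and the NR4A genes have 8 exons each over 17174 to 41295 bases. The heptamer TATTTAT, a core of the AU-rich elements through which Zfp36 (tristetraprolin) marks short-lived mRNAs for decay, was counted in the 3′ untranslated region of the transcript with the longest coding sequence. Ier3 held 4 copies in 613 bases, Nr4a3 2 and Nr4a2 1, while the other 6 held 0, and 27.5% of 12066 tested genes held at least 1. Among those genes 9.47% held at least 2. The stretch of Ier3 with the densest copies, 168 to 196 bases into that region on chromosome 17, is shown with the heptamers in capitals.
Ier3, AU-rich site: ccgtgtctaattaaTATTTATgTATTTAT

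Other early genes, listed by name with earlier results of these data known, differed in how far they followed. Of 29 other immediate-early genes 17 were higher, 2 lower and 10 not called, with a median log2 change of 0.43. Over all genes tested 21.4% were higher and 16.1% lower, the shares to set beside the counts of each list here and below. The largest rises were Fosl1 (2.91 ± 0.49, adjusted p = 0.0013), Klf4 (2.69 ± 0.20, adjusted p = 7.9e-06), Gadd45a (1.68 ± 0.10, adjusted p = 2.1e-06) and Dusp2 (1.54 ± 0.15, adjusted p = 3.9e-05), all by edgeR. The change of Fosl1 rests on 12 transwell counts in all. Fos itself, the AP-1 gene used beside Egr1 as an activity marker, averaged 279.9 ± 8.62 FPKM in contact libraries and 210.7 ± 2.71 FPKM in transwell libraries (SD, n = 3 each), a log2 change of 0.29 ± 0.06 (edgeR adjusted p = 0.00552). Jun (0.13), Fosb (0.0062) and Dusp1 (0.08) were not called, with adjusted p of 0.188, 0.987 and 0.495 in edgeR. Atf3 (-0.26) and Klf2 (-0.54) were lower, with edgeR adjusted p of 0.0284 and 0.0494. The lower count was 0 without contact replicate 1, contact replicate 2 or transwell replicate 1, and 1 without contact replicate 3 or transwell replicate 3. It was also 0 with upper-quartile scaling and in limma on log2(FPKM + 1).

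Of 12 tested genes of ERK feedback 6 were higher and 1 lower. The phosphatase genes Dusp5 (1.34 ± 0.12) and Dusp6 rose, and Dusp6 stood at 44.5 FPKM in contact against 28.2 FPKM in transwell libraries, while Spry2 (0.17), Spred1 (0.17), Spred2 (-0.21) and Dusp4 (-0.16) were not called. The ETS factor genes went opposite ways, with Etv4 at 4.05 FPKM in contact against 0.0233 FPKM in transwell libraries, on 4 transwell counts in all, and Etv5 lower (-1.03 ± 0.11). Spry1 rose (3.41 ± 0.38), on 13 transwell counts in all. Of SRF and its cofactors 2 of 6 were higher (Elk3 at 0.46 and Elk4 at 0.27) and 1 lower (Elk1 at -0.25). These small counts stand beside 21.4% higher and 16.1% lower over all genes tested. Srf stood at 16.5 FPKM in contact against 15.7 FPKM in transwell libraries (edgeR adjusted p = 0.738). The higher count was 1 when any library but transwell replicate 3 was left out, and the lower count was 0 when any library but transwell replicate 2 was. The lower count was also 0 with upper-quartile scaling, a replicate block, no filter or a mean FPKM of at least 1. In limma on log2(FPKM + 1) it was 0 as well.

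In the cyclic AMP and CREB list 6 of 11 genes were higher and 1 (Per1 at -0.26) lower, led by the phosphodiesterase genes Pde4d (1.55 ± 0.18) and Pde4b (1.06 ± 0.15) and by Rgs2 (0.96 ± 0.08), while Sik1 (0.05) and Creb1 (0.31) were not called. The call of Per1 was lost without contact replicate 1, contact replicate 2 or transwell replicate 3. It was also lost with upper-quartile scaling, with a mean FPKM of at least 1 and in limma on log2(FPKM + 1) or log2(FPKM + 0.1). Of 9 NF-κB subunits and feedback inhibitors 8 were higher and 0 lower (0 also by the unadjusted p, by DESeq2 and by limma), with Nfkbie (1.5 ± 0.09) and Tnfaip3 (1.11 ± 0.10) in front. With 1 library left out 6 to 8 of these 9 were higher and 0 lower. Among partners and relatives of the members, 4 of 6 tested genes were called higher with small changes, such as Nab1 (0.29) and Nab2 (0.23), which encode corepressors bound by EGR proteins. These calls depended on the setting, as 0 or 1 of the 6 was called when any 1 library was left out and 1 in DESeq2. Ier5l, a relative of Ier5, stood at 0.483 FPKM in contact against 0.207 FPKM in transwell libraries, and Egr4 had 0 counts in all 6 libraries.

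**Figure D4:**
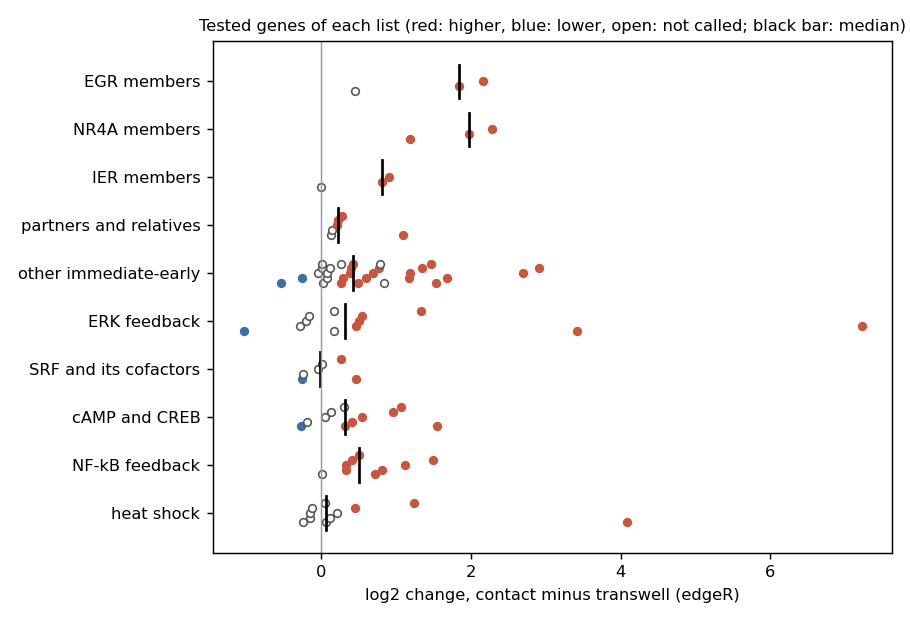
Log2 change, contact minus transwell, from edgeR (horizontal axis) of each tested gene in 10 lists (rows), filled red where higher, filled blue where lower and open where not called, with a black bar at the list's median. The NR4A and EGR genes have the highest medians, 1.98 and 1.84, and the point at the far right is Etv4.

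Markers of the cell types that the sorted samples could hold are given beside these results. The 13 macrophage markers summed to 14596 to 16573 FPKM in contact and 16114 to 17174 FPKM in transwell libraries. Lyz2 made up most of these sums, with means of 12180 FPKM in contact and 13310 FPKM in transwell libraries. Of the 13 markers 5 were higher and 5 lower. Fcgr1 (31.6 FPKM in contact against 109.5 in transwell libraries) and Adgre1 (577.8 against 1228) were lower. Cx3cr1 (10.95 against 3.46) and Cd14 (1343 against 441.8) were higher. No marker of any list was at 0 in all 6 libraries. The 20 epithelial markers, which the cancer cells could bring, summed to 1107, 1669 and 946.1 FPKM in contact replicates 1 to 3 and to 5.28 to 5.66 FPKM in transwell libraries, and 16 of 17 tested were higher. Contact replicate 2 thus held 1.51 times the marker level of replicate 1 and 1.76 times that of replicate 3. For the 9 early genes those ratios were 0.750 to 1.02 and 0.738 to 1.21. Contact replicate 3, which also held the lowest epithelial marker sum, was lowest for 7 of them and contact replicate 2 for the other 2. For Etv4 the ratios were 1.46 and 1.84, for Klf4 1.48 and 1.64, for Fosl1 1.69 and 2.40, and for Spry1 1.87 and 1.34. They were 1.08 and 1.02 for Gadd45a, 0.993 and 1.25 for Dusp2, and 1.03 and 0.989 for Maff. Each of these genes thus had a ratio just above the range of the 9. Of the other immediate-early genes, ratios were taken only for those named here. No library of mEC25 cells by themselves was analysed here, so how much of each rise their RNA makes up was not tested. Fewer cells of a type and less RNA per cell cannot be told apart in bulk samples.

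Of the other lists, neutrophil markers summed to 766.7 to 1133 FPKM in contact and 486.9 to 1144 FPKM in transwell libraries, with 4 of 9 tested higher (Retnlg, Elane, Mpo and Cxcr2) and Ly6g at 0.113 FPKM in contact and 0.0933 FPKM in transwell libraries. Fibroblast markers summed to 10.5 to 24.9 FPKM in contact and 3.54 to 8.03 FPKM in transwell libraries, and 4 of 6 tested were higher. Dendritic cell markers (2.85 to 4.05 FPKM in contact, 4.28 to 7.41 FPKM in transwell libraries) and lymphocyte markers (1.67 to 2.0 FPKM in contact and 0.96 to 2.20 FPKM in transwell libraries) were far below those of macrophages. Of 3 dendritic cell markers tested 1 was lower, Batf3, at 0.737 FPKM in contact and 2.64 FPKM in transwell libraries (edgeR adjusted p = 2.8e-04). Of 11 heat shock genes, which cell handling can induce along with early genes, 3 (Hspa1b, Hspa1a and Hsph1) were higher in contact libraries, with a median log2 change of 0.06. Over all genes tested 21.4% were higher, and the median log2 change was 0.03. Hspa1b stood at 6.15 FPKM in contact against 0.330 FPKM in transwell libraries, though Hspa1a and Hspa1b are near-identical copies whose reads may be split, and Hspa8 (-0.15), Hsp90aa1 (-0.24) and Dnajb1 (0.22) were not called. Contact replicate 2 held 1.405 times the Hspa1b level of contact replicate 1 and 1.66 times that of contact replicate 3. Hsph1 (14.2, 18.68 and 14.35 FPKM in contact replicates 1 to 3) and Hspa1a (0.49, 0.74 and 0.64 FPKM) were also highest there. The part of the heat shock genes in the early-gene result was not tested, nor was how much of their rise RNA of the cancer cells makes up.

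Genes whose pattern over the 6 libraries was closest to the most abundant gene of each family were found among 10057 genes by the root mean square difference of centred log2 CPM. Closest to Egr1 were P2ry1, an ADP receptor gene (0.095), Ets1, a transcription factor gene (0.105), and Gadd45a, a DNA damage-response gene (0.122). Nr4a1 was nearest to the mitotic genes Tpx2 (0.136) and Cep55 (0.143) and to Gcnt2 (0.144). For Ier3 they were Tmem51 (0.0395), H2-K2 (0.0425), which belongs to a family of similar copies, and Map1lc3a (0.0506).

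Calls for the 9 genes held under most alternatives. Nr4a1, Nr4a2, Egr1, Ier2 and Ier3 stayed higher past the threshold in all 15 alternatives, and Egr3 and Nr4a3 in all 14 that tested them. Limma on log2(FPKM + 1), a scale that understates the change of low genes, gave 0.83 for Egr3, 0.74 for Nr4a2 and 0.46 for Nr4a3. Limma-voom with quantile normalization gave 0.76 for Nr4a2 and 1.30 for Nr4a3. Egr2 was called in 3 of 15, and its log2 change was 0.06 in limma-voom with quantile normalization. Of all genes called, 57.1% were higher here, 55.8% with RLE scaling and 62.2% with upper-quartile scaling. With both the scaling and the test changed, the share was 41.5% in limma-voom with quantile normalization and 72.8% in limma on log2(FPKM + 1).

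**Figure D5:**
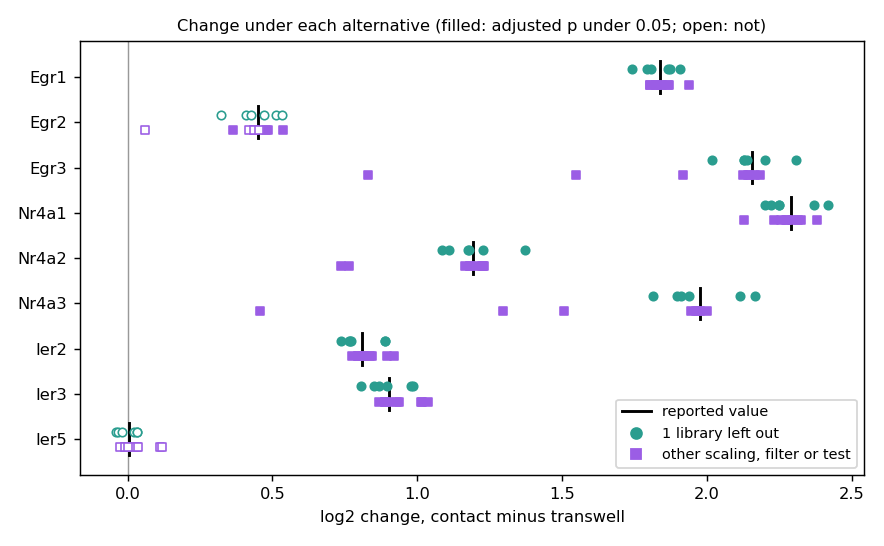
Log2 change of each gene, contact minus transwell (horizontal axis), as reported (black bar), with 1 library left out (green circles) and under other scalings, filters or tests (purple squares), filled where the adjusted p is under 0.05. The points of 7 genes are filled throughout, those of Ier5 are all open around 0, and the lowest squares of Egr3, Nr4a2 and Nr4a3 are limma on log2(FPKM + 1).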

How the data were processed

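RNA sequencing of 3 contact and 3 transwell libraries was analysed, with groups and replicate numbers from the sample titles. Per the file headers, the authors deposited whole-number read counts for each Ensembl gene (22563835, 20911880 and 22200437 in contact libraries; 18895818, 18173192 and 18569930 in transwell libraries). They also deposited FPKM, of which 99.93% of values with a count above 100 lay within 1% of the value from the count, the listed length and the summed counts. GRCm38 and mm10 are the builds in the submitters' processing notes, while 1 of the 9 genes had the position GENCODE M21 gives it, so positions are GENCODE's. No aligner, counter or strand setting is named in the sources used here. No GENCODE gene overlaps the exons of the 9. Replicates differed by 5.89 to 22.8 chi-square units per degree of freedom, above sampling noise.

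Genes were filtered with filterByExpr (minimum count 10) and tested two-sided with edgeR 4.0.16 (R 4.3.3) across 14113 genes. Standard errors are the absolute log2 change over the square root of F. The 95% intervals are unadjusted. On simulated counts for this comparison with 14113 genes the test found 29 of 67 genes with a 1.5-fold change. It found 49 of 67 at 2-fold and 62 of 66 at 4-fold. No other genes were changed in the simulation. They are far fewer than the genes called in the data, so these rates may not carry over to it. Alternatives used other scalings and filters, limma 3.58.1, DESeq2 1.42.0, a replicate block and each library left out. The members and lists were chosen with earlier results of these data known. Named beside the members were up to 4 called genes per list with the largest change; others of a list were named after their values were seen. Promoters are RefSeq's.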

Additional observations from a re-analysis of the deposited data

How the results depend on the processing

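Under 15 alternatives 6 to 8 of the 9 genes were called higher and 0 lower. The lowest count came with a mean FPKM of at least 1, a filter that removed Egr3 and Nr4a3 and called Egr2 (adjusted p = 0.0401). Egr2 was also called by limma on log2(FPKM + 1) and log2(FPKM + 0.1) (adjusted p = 0.0190 and 0.0211). Ier5 changed sign without being called, at -0.0093 with RLE scaling, -0.0273 with no filter, -0.0092 in DESeq2 and -0.0413 to 0.0314 with 1 library left out. With 1 library left out 7 genes stayed higher, the number of all genes higher was 2465 to 3093 and lower 1577 to 2217. Over all genes 3587 were lower in limma-voom with quantile normalization, 1422 in limma on log2(FPKM + 1) and 1442 on log2(FPKM + 0.1), against 2270 as reported. The cause was not tested. The median change of all genes was -0.0995 in limma-voom with quantile normalization and 0.138 with log2(FPKM + 0.1), against 0.0255 as reported. Changes of low genes were smaller on log2(FPKM + 1), at 0.83 for Egr3, 0.74 for Nr4a2 and 0.46 for Nr4a3.

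Replicate numbers were not shown to pair the samples: same-numbered deviations correlated at -0.106, -0.446 and 0.0408 across genes. With a replicate block 7 genes were higher and 0 lower, Egr2 had an edgeR adjusted p of 0.0840, and 2994 of all genes were higher and 2130 lower. With 3 libraries a group an exact permutation test of 1 gene cannot go below p = 0.1. Counts limit the precision for Nr4a3 and Egr3, at 11 to 25 per transwell library.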
